A study of Arabidopsis thaliana with 2 samples.

Results

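The 39 genes described here encode WRKY transcription factors, and each was followed through the 10 kb bin that holds its midpoint. The 39 genes lay in 39 different bins, out of 11916 nuclear bins, and the genes were taken as a fixed list of locus identifiers, all of which matched the gene table. The data are MNase-seq counts from Arabidopsis thaliana leaves. Micrococcal nuclease cuts exposed DNA, and what it leaves behind, mostly DNA wrapped around nucleosomes, is sequenced. The libraries were 1 of the wild type and 1 of chr5, a line with a mutation in a SNF2-family chromatin remodeller of the CHD1 type. Both came from untreated plants grown on plates at 22 °C. No source used here gives the allele, the accession or the age of the plants. The question is how protected DNA in the bins of WRKY genes compares between the genotypes.

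WRKY proteins bind DNA through a zinc-finger domain that carries the amino acids WRKY and recognise W-boxes, short elements in the promoters of stress-response genes, WRKY genes among them. In leaves they are best known as regulators of immunity, salicylic acid signalling and senescence, downstream of MAP kinase cascades and together with VQ-motif partner proteins. Group I proteins have a pair of WRKY domains, group II proteins have 1 with the same type of zinc finger, and group III proteins have 1 with a variant zinc finger.

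The wild-type library held 99909809 counts, of which 99392770 were nuclear, and the mutant library 102961878, of which 102412872 were nuclear. All ratios are mutant over wild type after each library was scaled to its nuclear total, and the log2 ratio had a pseudocount of 1 on each count. With 1 library per genotype there is no replicate check and no test. The bracketed ranges are exact conditional binomial intervals at 95%, which cover counting error only. Each bin was set beside arm bins of similar count, meaning analysed bins over 2 Mb from the approximate centromere position that hold no WRKY gene and whose mean scaled count was within 10% of its own. There were 9784 analysed arm bins without a WRKY gene, called arm bins here, and 816 to 2693 of them were of similar count to a given WRKY bin. Counts of protected DNA do not report cell types, so the leaf label was not checked.

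A bin is larger than a WRKY gene. The WRKY gene filled 9.03% to 41.1% of its bin, with a median of 18.9%, and 30 of the 39 genes lay wholly inside it while 9 reached into a second bin. Between 2 and 7 protein-coding genes, with a median of 3, overlapped each bin. All 39 bins passed the filter on low counts and 38 lay in the chromosome arms. The exception was the bin of WRKY1 (AT2G04880), at chromosome 2, 1710001 to 1720000, within 2 Mb of the centromere position.

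WRKY bins held slightly fewer counts than the typical arm bin in both libraries. Wild-type counts ran from 4793 to 11337 with a median of 6897, against a median of 7826 over arm bins. Mutant counts ran from 5154 to 12102 with a median of 7074, against 8177. Of the 39 bins, 24 were under the arm median in the wild type. The bins also held less coding sequence, with a median of 60.3% of their length in protein-coding genes against 66.6% in arm bins, and the wild-type count followed coding coverage (Spearman's rho of 0.75 over the 39 bins and 0.67 over arm bins, a description across bins of 1 library). The median WRKY bin was at 0.881 times the arm median, and at 0.967 times the median of arm bins whose coding coverage was within 10 percentage points, a comparison added after the data were seen. In that comparison 25 of 39 bins were lower, and the range was 0.685 to 1.24.

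The fullest bin was that of WRKY26 (AT5G07100), a group I gene tied to heat tolerance with WRKY25 (AT2G30250) and WRKY33 (AT2G38470). It had 11337 wild-type and 12102 mutant counts, and protein-coding genes filled 93.7% of it. Next was the bin of WRKY2 (AT5G56270), a group I regulator of zygote polarity and seed germination, with 10268 and 10452 counts. The emptiest were those of WRKY48 (AT5G49520), a group IIc repressor of defence against bacteria, with 4793 and 5154 counts, and of WRKY54 (AT2G40750), a group III regulator of salicylic acid responses and senescence, with 4795 and 5305. Coding coverage in these was 33.2% and 29.0%. The order of the 39 bins was nearly the same in both libraries (Spearman's rho of 0.99 between their counts, a description over bins).

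**Figure D1:**
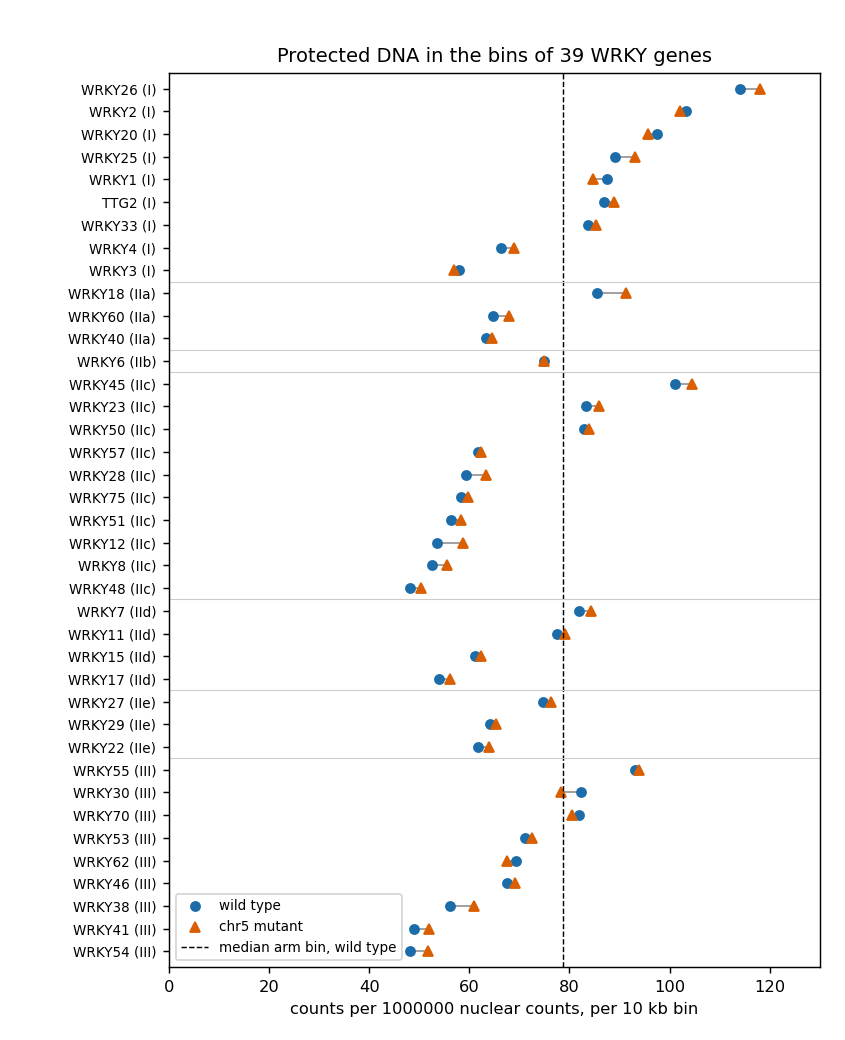
Counts per 1000000 nuclear counts (x axis) in the bin of each of 39 WRKY genes (y axis, with the WRKY group in brackets). Circles are the wild-type library and triangles the chr5 mutant library, 1 of each; the dashed line is the wild-type median of arm bins. The bins of WRKY48 and WRKY54 have the fewest wild-type counts, 48.2 on this scale, and that of WRKY26 the most, 114, and the libraries lie close together in every bin.

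Between genotypes the WRKY bins behaved much like other arm bins of their count. Their median log2 ratio was 0.032, against 0.021 over arm bins, and 31 of 39 (79.5%) were above 0, against 68.6% of arm bins and 73.5% of those of similar count. The log2 ratio tended to be higher where a bin had fewer counts, with a rho of -0.43 over the WRKY bins and -0.39 over arm bins, both with the mean count of the libraries that also make the ratio. Set against arm bins of similar count, the median WRKY bin was 0.0050 higher on the log2 scale, with 23 bins above their reference and 16 below. Summed over the 39 bins, 280888 wild-type and 295817 mutant counts gave a fold of 1.022 (1.017 to 1.027). This interval covers counting error only, not the spread among bins, and the median arm bin was itself above 0 on the log2 scale. By chromosome the median log2 ratio ran from 0.012 for the 2 bins of chromosome 3 to 0.041 for the 9 bins of chromosome 4.

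The spread among WRKY bins was close to that of the arms. The log2 ratios ran from -0.070 to 0.13 with an SD of 0.045 over the 39 bins, against 0.050 over all arm bins. Among arm bins of similar count, which leaves out most of the trend with count, the median SD was 0.044. Poisson counting alone gave 0.025. A line was drawn at a 5% higher count in the mutant and at the same fold downward. Past it upward there were 7 WRKY bins (17.9%), where 13.6% of all arm bins and 15.2% of those of similar count were. Past it downward there were 0, where 3.45% of arm bins and 2.62% of those of similar count were. The bin of WRKY30 (AT5G24110), at a fold of 0.953, lay just short of that line. With the line at 10%, 0 WRKY bins were higher and 0 lower, against 0.899% and 0.664% of arm bins.

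The counting interval of the fold lay wholly above 1 for 16 WRKY bins (41.0%), against 27.9% of arm bins and 30.9% of those of similar count. It lay wholly below 1 for 2, those of WRKY30 and WRKY1, or 5.13%, against 8.66% of arm bins and 6.15% of those of similar count. Since many arm bins pass the same line, such an interval does not set a WRKY bin apart from its surroundings. Among the arm bins of similar count, 19 of the 39 WRKY bins lay between the 25th and 75th percent of the ranking, 3 above the 95th and 1 under the 5th.

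**Figure D2:**
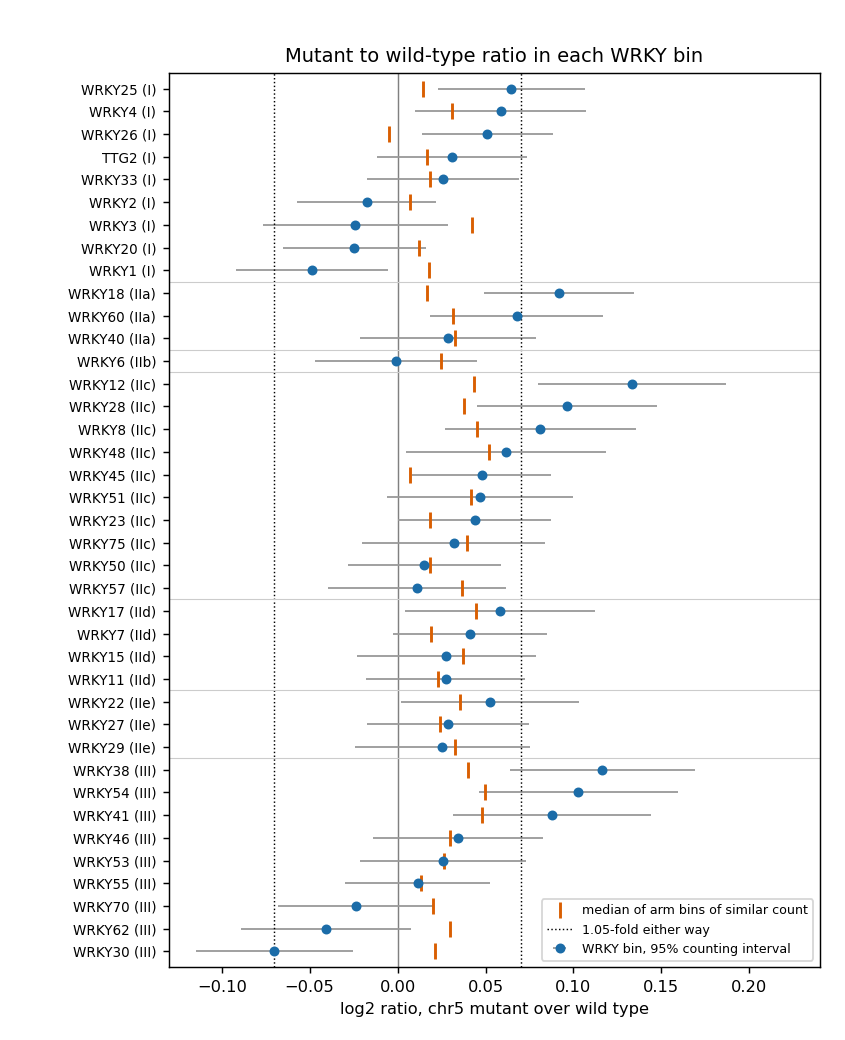
Log2 ratio of mutant to wild type (x axis) for each WRKY bin (y axis, group in brackets), with the exact 95% counting interval as a bar. The orange tick is the median of arm bins of similar count and the dotted lines mark the 5% line either way; WRKY12 is the highest at 0.13 and WRKY30 the lowest at -0.070, and 28 of 39 intervals reach their tick.

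Of the 9 group I genes, 5 bins were above the arm median and 4 below. WRKY33, an activator of camalexin synthesis that is needed for resistance to necrotrophic fungi, held 8329 wild-type against 8737 mutant counts in its bin (chromosome 2, 16100001 to 16110000), or 1.018-fold (0.988 to 1.049). This was 0.0075 above arm bins of similar count on the log2 scale, close to the middle of their ranking. The bins of its relatives WRKY25, with 8855 and 9542 counts, or 1.046-fold (1.016 to 1.077), and WRKY26, at 1.036 (1.010 to 1.063), were higher than 92.8% and 93.7% of similar arm bins. TTG2 (WRKY44, AT2G37260), which acts in trichome and seed coat development, held 8642 and 9097 counts, or 1.022-fold (0.992 to 1.052).

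The remaining group I bins held 3 of the 5 lowest ratios of the family. WRKY1, listed as ZAP1 in the gene table, held 8701 wild-type against 8668 mutant counts, or 0.967-fold (0.938 to 0.996), in the single bin near a centromere. WRKY20 (AT4G26640) held 9682 and 9808 counts, or 0.983-fold (0.956 to 1.011). WRKY3 (AT2G03340) held 5759 and 5836 counts, or 0.983-fold (0.948 to 1.020), while WRKY4 (AT1G13960), which shares with WRKY3 a role in resistance to necrotrophs, held 6586 and 7068, or 1.042-fold (1.007 to 1.077). The bin of WRKY3 was lower than 91.6% of arm bins of similar count and that of WRKY4 was higher than 76.8%. WRKY2 was at 0.988 (0.961 to 1.015). The bins beside those of WRKY1, WRKY20 and WRKY3 had log2 ratios between 0.016 and 0.045, so each of these had a point value under both of its neighbours.

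Group IIa holds WRKY18 (AT4G31800), WRKY40 (AT1G80840) and WRKY60 (AT2G25000), which bind one another and act as partly redundant repressors of defence and of abscisic acid responses. All 3 bins were above the arm median, but to different extents. WRKY18 (chromosome 4, 15380001 to 15390000) held 8507 wild-type against 9342 mutant counts, or 1.066-fold (1.035 to 1.098), and was higher than 98.0% of arm bins of similar count. The bins on either side of it were at 1.004 (0.974 to 1.035) and 0.998 (0.964 to 1.032), and both of these intervals include 1. The WRKY18 bin also holds the protein-coding genes AT4G31805 and AT4G31810, so its counts do not belong to WRKY18 alone. WRKY60 held 6435 and 6949 counts, or 1.048-fold (1.013 to 1.084), and WRKY40 held 6294 and 6616, or 1.020-fold (0.985 to 1.056), with a difference of -0.0040 from its reference on the log2 scale. WRKY6 (AT1G62300), the only listed gene of group IIb and a regulator of senescence and phosphate transport, held 7451 and 7672 counts, or 0.999-fold (0.968 to 1.032).

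All 10 bins of group IIc were above 0, where 68.6% of arm bins were. Of the 10, 8 were above the arm median, and the median log2 ratio of the group was 0.047. This group also had the lowest median wild-type count of the groups, 5846, the next being 6378 for group IIe. Relative to arm bins of similar count, its median was 0.018, with 7 bins above and 3 below. WRKY12 (AT2G44745), a repressor of secondary wall formation in the pith that also acts on flowering time, was the highest of the whole list. Its bin (chromosome 2, 18440001 to 18450000) held 5319 wild-type against 6010 mutant counts, or 1.097-fold (1.057 to 1.138), and was higher than 99.0% of arm bins of similar count. CYCP4;1 (AT2G44740), a cyclin gene, shares this bin, so the counts do not belong to WRKY12 alone. The bins on its 2 sides went opposite ways, at 0.962 (0.939 to 0.986) and 1.045 (1.011 to 1.079).

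WRKY28 (AT4G18170), an activator of the isochorismate synthase gene ICS1 (AT1G74710) of salicylic acid synthesis, held 5890 wild-type against 6487 mutant counts, or 1.069-fold (1.032 to 1.107). Its left neighbour held 8880 and 8441 counts, or 0.923-fold (0.895 to 0.951), beyond the central 95% of arm bins, which ended at a log2 ratio of -0.080, whereas the right neighbour was at 1.040 (1.010 to 1.071). WRKY8 (AT5G46350), which acts in salt and virus responses, held 5220 and 5690 counts, or 1.058-fold (1.019 to 1.099). Its bin was higher than 81.6% of arm bins of similar count. WRKY75 (AT5G13080), a regulator of phosphate starvation responses and senescence, held 5802 and 6112 counts, or 1.022-fold (0.986 to 1.060). WRKY50 (AT5G26170) and WRKY51 (AT5G64810), which mediate repression of jasmonate signalling by salicylic acid, were at 1.011 (0.980 to 1.042) and 1.033 (0.996 to 1.072). WRKY45 (AT3G01970), WRKY23 (AT2G47260), WRKY48 and WRKY57 (AT1G69310) ranged from 1.008 for WRKY57, a drought tolerance gene, to 1.044 for WRKY48.

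The calmodulin-binding group IId and group IIe lay close to their references. In group IId, WRKY7 (AT4G24240), WRKY11 (AT4G31550), WRKY15 (AT2G23320) and WRKY17 (AT2G24570) had log2 ratios of 0.027 to 0.058. The largest difference from arm bins of similar count among the 4 was 0.022, for WRKY7. WRKY11 and WRKY17, related repressors of basal resistance, were at 1.019 (0.988 to 1.051) and 1.041 (1.003 to 1.081). In group IIe, WRKY22 (AT4G01250) and WRKY29 (AT4G23550), which act downstream of flagellin perception through MAP kinases, had 6131 and 6551 counts and 6378 and 6689 counts, wild type first in each. Their folds were 1.037 (1.001 to 1.074) and 1.018 (0.983 to 1.054), and WRKY27 (AT5G52830) was at 1.020 (0.988 to 1.053).

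Group III held both low and high bins and had an SD of 0.065 over its 9 log2 ratios, the widest of the groups with 3 or more bins. Here 5 bins were above the arm median and 4 below, with a group median of 0.026. WRKY30, a gene induced by reactive oxygen species, was the lowest of the list. Its bin (chromosome 5, 8150001 to 8160000) held 8177 wild-type against 8026 mutant counts, or 0.953-fold (0.924 to 0.983), and 97.2% of arm bins of similar count were higher. Its neighbours were at 1.007 (0.976 to 1.039) and 1.019 (0.983 to 1.056). The bin also holds SIGE (AT5G24120), a plastid sigma factor gene.

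WRKY38 (AT5G22570) and WRKY62 (AT5G01900), a pair of salicylic acid-induced repressors of basal defence, were among the 2 highest and the 3 lowest bins of the list. WRKY38 (chromosome 5, 7490001 to 7500000) held 5579 wild-type against 6232 mutant counts, or 1.084-fold (1.045 to 1.124), above 97.4% of similar arm bins. WRKY62 (chromosome 5, 350001 to 360000) held 6897 and 6910 counts, or 0.972-fold (0.940 to 1.005), above 5.82% of similar arm bins. Both values are single bins, and the difference between them was not tested.

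WRKY54 and WRKY70 (AT3G56400), which act together as negative regulators of salicylic acid synthesis and senescence, were on different sides of the arm median. WRKY54 (chromosome 2, 17000001 to 17010000) was at a fold of 1.074 (1.032 to 1.117), and WRKY70 (chromosome 3, 20900001 to 20910000), with 8133 and 8245 counts, at 0.984 (0.954 to 1.015). WRKY55 (AT2G40740) lies in the bin just before that of WRKY54 and held 9261 and 9618 counts, or 1.008-fold (0.979 to 1.037). The wild-type levels of these neighbouring bins were 93.2 against 48.2 counts per 1000000 nuclear counts. WRKY46 (AT2G46400), which acts with WRKY54 and WRKY70 in drought and brassinosteroid responses, held 6704 and 7074 counts, or 1.024-fold (0.990 to 1.059). WRKY53 (AT4G23810), a promoter of leaf senescence, held 7075 and 7422 counts, or 1.018-fold (0.985 to 1.052), which put it at the middle of its arm reference. WRKY41 (AT4G11070) was at 1.063 (1.022 to 1.105), from 4858 and 5319 counts, and was higher than 83.5% of arm bins of similar count. The signs for WRKY55 and WRKY57 turned negative when the median nuclear bin was set to 0.

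**Figure D3:**
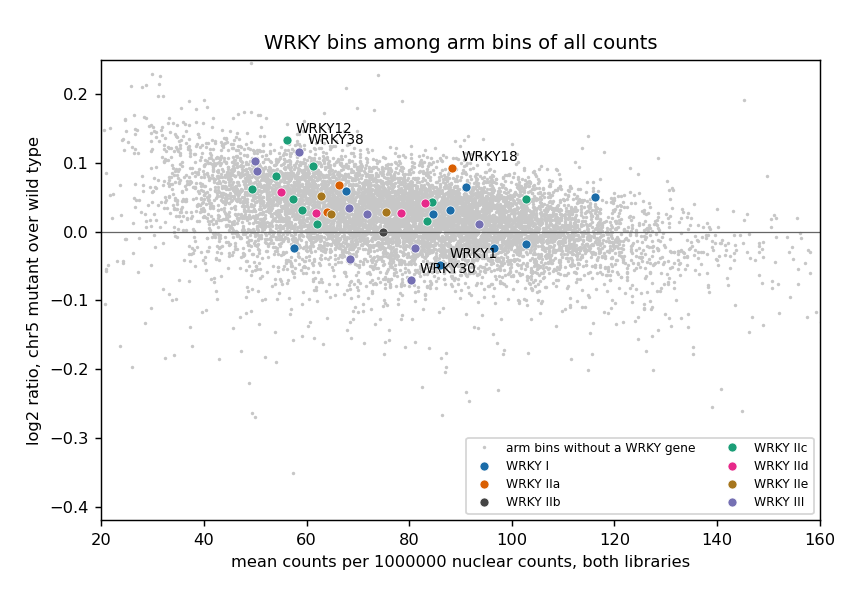
Log2 ratio of mutant to wild type (y axis) against the mean counts per 1000000 nuclear counts of both libraries (x axis). Grey points are arm bins without a WRKY gene and coloured points the 39 WRKY bins by group; WRKY bins lie inside the cloud, which slopes down with a rho of -0.39, and 21 arm bins fall outside the axes.

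The WRKY bins had a higher mean ratio than the bins around them. The mean log2 ratio was 0.035 ± 0.045 (SD over 39 bins) in the WRKY bins, and between 0.0099 and 0.024 at distances of 10 to 50 kb on either side, with SDs of 0.038 to 0.052. The gap was smaller on medians, at 0.032 in the WRKY bins and 0.010 to 0.027 at those distances. The WRKY bin was above the mean of its 2 neighbours in 23 of 39 cases (59.0%), against 49.9% of arm bins, with a median difference of 0.0096. The median wild-type count was lower in the WRKY bins as well, at 69.4 counts per 1000000 nuclear counts against 78.8 and 78.9 in the adjacent bins. Taken bin by bin, the wild-type count was at a median of 0.980 times the mean of its 2 neighbours, with 22 of 39 bins below it, against 0.993 times and 50.8% of arm bins. The part of the bin count in the higher ratio was not tested, and the median difference from arm bins of similar count was 0.0050. The ratio showed little relation with the share of the bin filled by the WRKY gene itself (rho of -0.094 over 39 bins).

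**Figure D4:**
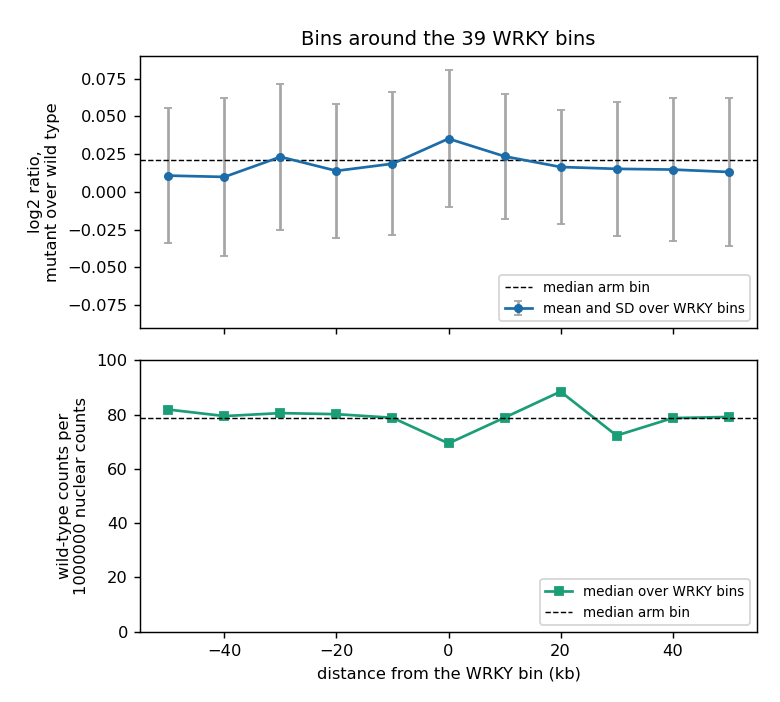
Upper panel, mean log2 ratio with the SD over bins (y axis) at distances of up to 50 kb from the 39 WRKY bins (x axis); lower panel, median wild-type counts per 1000000 nuclear counts at the same distances. Dashed lines are the medians of arm bins, so the upper panel sets means beside a median. The WRKY bins at 0 kb stand at 0.035 in the upper panel and 69.4 in the lower, and 0.035 is the highest mean of the distances shown.

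The 33 other WRKY genes in the gene table had values like the 39, and 31 of their bins lay in the arms. Their wild-type counts had a median of 7197 and their log2 ratios a median of 0.034, with 19 bins above the arm median and 14 below and 0.011 above arm bins of similar count. Past the 5% line, 6 of the 33 were higher and 1 lower, where 13.6% and 3.45% of all arm bins were. The share among arm bins of similar count was not computed for this list, and the ratio tended to be higher at low counts. All 6 higher bins were above the median of arm bins of similar count. Among them, the low-count bins of WRKY47 (AT4G01720) and WRKY49 (AT5G43290) were higher than only 59.7% and 61.4% of such bins. The highest by log2 ratio were WRKY13 (AT4G39410), with 4267 wild-type and 4740 mutant counts, or 1.078-fold (1.034 to 1.124), and WRKY65 (AT1G29280), with 3933 and 4320, or 1.066-fold (1.021 to 1.113). These were higher than 89.2% and 75.5% of arm bins of similar count. WRKY13 acts on stem secondary walls and flowering time in the opposite direction to WRKY12, and both bins were on the high side. The lowest were WRKY42 (AT4G04450), within 2 Mb of the centromere position of chromosome 4, at 0.951 (0.921 to 0.981), and WRKY32 (AT4G30935) at 0.979 (0.953 to 1.005).

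The 21 genes of the WRKY pathway were 9 of MAP kinase cascades, 6 of VQ-motif proteins and 6 known or proposed WRKY targets. They had a median log2 ratio of 0.014, with 9 bins above the arm median and 12 below. Against arm bins of similar count, 8 were above and 13 below, with a median difference of -0.0058. Past the 5% line, 1 of the 21 was higher and 0 lower, where 13.6% and 3.45% of all arm bins, whatever their count, were. That one was MEK1 (MKK1, AT4G26070), a MAP kinase kinase gene of the MPK4 (AT4G01370) branch, with 6603 wild-type and 7158 mutant counts, or 1.052-fold (1.017 to 1.088). SIB1 (AT3G56710), whose VQ protein binds WRKY33, followed with 6347 and 6859 counts, at 1.048 (1.013 to 1.084).

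The lowest pathway genes encode kinases upstream of WRKY33 and WRKY22. MPK3 (AT3G45640) held 7669 wild-type against 7713 mutant counts, or 0.976-fold (0.946 to 1.008), and MKK5 (AT3G21220) held 9882 and 10026, or 0.985-fold (0.958 to 1.012). The 9 MAP kinase cascade bins had high counts, with a wild-type median of 8902, and 8 were below the arm median. Against arm bins of similar count 6 were below and 3 above, with a median difference of -0.020. Of the 9, 8 lay in the arms. The bin of MEKK1 (AT4G08500) was within 2 Mb of the centromere position of chromosome 4, and was below both references. The VQ bins had a median log2 ratio of 0.028 and the target bins of 0.024. Against arm bins of similar count, 1 VQ bin was above and 5 were below, with a median difference of -0.014. For the target bins 4 were above and 2 below, with a median difference of 0.0063. Among targets, PAD3 (AT3G26830), the camalexin gene that WRKY33 activates, was at 1.032 (0.999 to 1.066) and ICS1 (EDS16) at 1.001 (0.975 to 1.028).

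**Figure D5:**
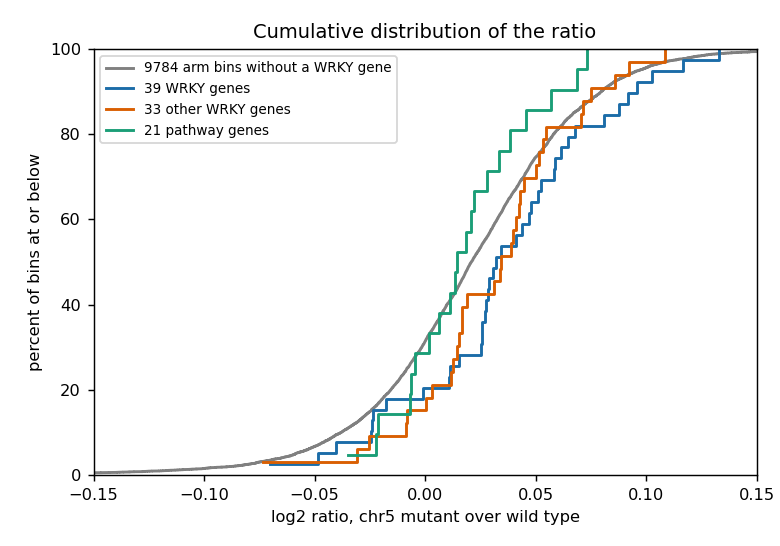
Percent of bins at or below each log2 ratio of mutant to wild type (y axis against x axis), for 9784 arm bins without a WRKY gene, the 39 WRKY genes, 33 other WRKY genes and 21 pathway genes. The medians are 0.021, 0.032, 0.034 and 0.014 in that order, and the curves run close together.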

How the data were processed

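MNase-protected DNA from leaves was sequenced for 1 wild-type and 1 chr5 sample, per the labels. The authors deposited whole-number counts per consecutive 10 kb bin, not normalized. BWA 0.7.5a and bedtools are named in the submitters' processing notes. No source used here gives the genome build, what each tool did or how duplicates and repeated matches were treated. Gene midpoints and names came from RefSeq (assembly TAIR10.1), and the bins were assumed to follow the same coordinates. As a check, wild-type log2 counts and protein-coding coverage, each less its running median of 21 bins, correlated best with no shift (r of 0.45, at most 0.038 at shifts of 1 to 4 bins).

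Counts were scaled to the nuclear total, and 181 of 11916 bins with a mean scaled count below 0.25 of the nuclear median were removed. Centromere positions were taken as 15, 3.6, 14, 4 and 12 Mb on chromosomes 1 to 5. WRKY groups and gene roles are background knowledge. Other WRKY genes were those with a WRKY number among their symbols or synonyms. The members and lists were chosen with earlier results of these data known. Full values were given for the 5 highest and 5 lowest WRKY bins, the extremes in wild-type count and 19 regulators. They were also given for the 2 highest and 2 lowest of the other lists. WRKY4, WRKY8, WRKY41, WRKY50, WRKY51, WRKY11, WRKY17, WRKY27, WRKY55, WRKY47, WRKY49, PAD3 and ICS1 were added after their values were seen. Alternatives were other scalings, filters, pseudocounts, references, thresholds and gene assignments. The scripts were tested on simulated counts. Software versions were scipy 1.17.1, numpy 2.4.6, matplotlib 3.10.9 and pandas 2.3.3 under Python 3.11.15.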

Additional observations from a re-analysis of the deposited data

How the results depend on the processing

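With 1 library per genotype no alternative says how far another preparation would differ, and depth limits a single WRKY bin to about the widths of its counting interval. The median log2 ratio of the WRKY bins, 0.032 as reported, was 0.017 when the median nuclear bin was set to 0, a shift of 0.015 that all bins share. Under that scaling 6 bins were past the 5% line upward, with WRKY8 back at 0.066, and 1 was past it downward, WRKY30 at -0.085, against 7 and 0 as reported. The shares of arm bins past the line also shift under that scaling and are not given here, so these counts have no arm reference. With the scaling as reported and the line at 10%, 0 were higher and 0 lower, where 0.899% and 0.664% of arm bins were. The wild-type level relative to the arms was 0.881 against all arm bins and 0.967 against arm bins of similar coding coverage. The difference from arm bins of similar count stayed between 0.0039 and 0.0072 under all alternatives run. Apart from the 4 values above, the other 40 values for the family moved by less than the counting interval of the summed bins or, for counts of bins, by less than 1.5 times, and the log2 ratio of each single bin stayed inside its interval under all 5 alternatives run for it. Counting every bin that a WRKY gene overlaps gave 48 bins, of which 9 were past the 5% line upward, where 13.6% of all arm bins were. Assignment by the gene's start was not run because the gene table used gives no strand. No paired analysis was possible because each genotype has 1 library.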

Other observations

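The clustered group III genes WRKY67 (AT1G66550), WRKY64 (AT1G66560) and ABO3 (WRKY63, AT1G66600) of chromosome 1, picked out after their values were seen, lie in 3 adjacent bins from 24820001 to 24850000. Wild-type counts were 7238, 6246 and 4059 and mutant counts 7730, 6663 and 4340, in that order. The folds were 1.036, 1.035 and 1.038, with counting intervals that lie between 0.994 and 1.083 and are wider than the differences among the 3. Each was within 0.027 of arm bins of similar count on the log2 scale.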
